A study of Mus musculus with 2 samples.

Results

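The junctions described here are gaps in read alignments on the mitochondrial chromosome (chrM) of mouse kidney. They were chosen by position alone, as every row of the deposited junction table that lies on chrM, whatever its flags, which gave 1988 of 492582 junctions (0.404%). The other 490594 lie on nuclear chromosomes. Each row gives the strand, the first and last skipped base on the build mm9, and a read count that adds up its 2 parts, R1 and R2. Neither R1 nor R2 is tied to a library by any source at hand. The study sequenced kidney of adult C57BL/6J mice aged 8 weeks in 1 group of 2 libraries, numbered as biological replicates, with no treatment, altered allele or second condition named. Per the labels, both libraries carry 1 donor label, each pools male and female littermates, the health state is unknown, and nothing says that the pools were separate, so the spread between them may be technical. The libraries are stranded and paired-end, made from polyadenylated RNA above 200 nucleotides after depletion of ribosomal RNA, with spike-in RNA added.

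Mitochondrial DNA is a small circle packed with genes for subunits of the respiratory chain, ribosomal RNAs and transfer RNAs. Its genes hold no introns that the splicing machinery removes. Both strands are transcribed as long precursors, from which most transfer RNAs are cut out to free the messenger and ribosomal RNAs between them. The kidney, whose tubules take up salt by active transport, is rich in mitochondria. Deletions of mitochondrial DNA often lie between direct repeats, and reverse transcriptase can move between short repeats while it copies RNA into cDNA. A gap in a cDNA read looks alike whether the RNA was spliced, the genome was deleted or the join arose during copying or alignment, and these tables cannot tell those apart.

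A chrM sequence for reading the gaps was assembled from the GENCODE M21 transcripts on GRCm38, which cover 15365 of its 16299 bases. The remaining 934 bases, including all from 15423 on, the control region and its border, were without sequence. The coordinates of the junction table were checked against it. All 25 rows with the flag C=1 and known bases began with GT and ended with AG on their own strand, and 0 of 1907 rows with C=0 did. All 1907 rows with C=0 were placed as far left as a repeat at their borders allowed. That share was 71.2% when the coordinates were moved by 1 base to the left and 12.9% when they were moved to the right.

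The sequences of the junctions with the highest counts are shown first, because the short repeats at their borders recur throughout the results. Each border is a window of 30 bases, 5′ to 3′ on the plus strand, from GENCODE M21 on GRCm38. The left border starts 15 bases before the gap, and the right border has the last 15 bases of the gap followed by the bases after it. Capitals mark the direct repeat, the run of bases at the start of the gap that stands again just after it. Of the following gaps, 7 of the 8 with the highest counts, the first 3 lie in mt-Co1, the next in mt-Cytb, 1 in mt-Nd1, 1 more in mt-Cytb and the last in mt-Nd4.
left border of 6458-6518, chrM:6443-6472: tgtagtagcccatttCCActatgttctatc
right border of 6458-6518, chrM:6504-6533: tttgttcactgattcCCAttattttcaggc
left border of 6451-6517, chrM:6436-6465: catactatgtagtagCCCATTtccactatg
right border of 6451-6517, chrM:6503-6532: atttgttcactgattCCCATTattttcagg
left border of 6454-6514, chrM:6439-6468: actatgtagtagcccATTtccactatgttc
right border of 6454-6514, chrM:6500-6529: aggatttgttcactgATTcccattattttc
left border of 14428-14538, chrM:14413-14442: tttttatttgcttatTCCTTCatgtcggac
right border of 14428-14538, chrM:14524-14553: catttataggctacgTCCTTCcatgaggac
left border of 2807-2858, chrM:2792-2821: aatcgccatagccttCCTAACATTagtaga
right border of 2807-2858, chrM:2844-2873: caactacgaaaaggcCCTAACATTgttggt
left border of 14517-14570, chrM:14502-14531: ctgttcgcagtcataGCCACAGcatttata
right border of 14517-14570, chrM:14556-14585: atatcattctgaggtGCCACAGttattaca
left border of 11332-11416, chrM:11317-11346: cattattttcttgatCAAACTttaccatta
right border of 11332-11416, chrM:11402-11431: taccacccaacgcggCAAACTaaccaacca

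The next 4 gaps have the highest counts among those of 1000 bases or more, with capitals as above. Both of the first pair skip 7898 bases, from mt-Co1 to the strand opposite mt-Nd6, and their borders lie 2 bases apart. The third runs from mt-Co1 to mt-Cytb. The fourth runs from mt-Nd2 to mt-Nd4 and has no shared base at its borders, so nothing is in capitals. A further gap, of 1073 bases with a count of 2, has the longest repeat of any chrM row, 14 bases.
left border of 5972-13869, chrM:5957-5986: aacagaccgcaacctAAACACAACtttctt
right border of 5972-13869, chrM:13855-13884: agcagtcgtatatccAAACACAACcaacat
left border of 5970-13867, chrM:5955-5984: ctaacagaccgcaacCtaaacacaactttc
right border of 5970-13867, chrM:13853-13882: atagcagtcgtatatCcaaacacaaccaac
left border of 5954-14926, chrM:5939-5968: aggcattactatactACTAAcagaccgcaa
right border of 5954-14926, chrM:14912-14941: cataccagctaatccACTAAacaccccacc
left border of 4306-11418, chrM:4291-4320: aggacttattcttcttacatgacaaaaaat
right border of 4306-11418, chrM:11404-11433: ccacccaacgcggcaaactaaccaaccata
left border of 8159-9231, chrM:8144-8173: tttccctaatcatatTTATTGGATCAACAa
right border of 8159-9231, chrM:9217-9246: atggactccatgtaaTTATTGGATCAACAt

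The 3 gaps of highest count with the flag C=1 follow. Repeats are not marked in them, but the borders of 8695-9027 do hold one. Its last bases before the gap stand again at the end of the gap, and its GT stands again just after. Here capitals mark the first 2 and the last 2 bases of the gap, GT and AG, the pair found at most nuclear introns.
left border of 5493-5556, chrM:5478-5507: gaccaaatttacaatGTtatcgtaactgcc
right border of 5493-5556, chrM:5542-5571: caataataattggAGgctttggaaactgac
left border of 6447-6630, chrM:6432-6461: gatacatactatgtaGTagcccatttccac
right border of 6447-6630, chrM:6616-6645: tcctgggcctttcAGgaataccacgacgct
left border of 8695-9027, chrM:8680-8709: tccttctaacatcagGTctagtaatatgat
right border of 8695-9027, chrM:9013-9042: tacttctagcatcAGgtgtttcaattacat

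Junctions on chrM were many but thin. They held 7319 of the 54868251 counts in the junction table, or 133 per 1000000 counts. The median count was 1 and the highest was 1101. A single read stood behind 1224 rows (61.6%). It stood behind 73.4% of the 205227 nuclear rows with the flags A=0 and C=0. Among those of them with a span in the chrM range the share was 62.4%, close to that of chrM. Only 56 rows had a count of 10 or more, and these held 4073 counts (55.6%). No chrM row had the flag A=1, 1960 rows had C=0 and 28 had C=1. All intervals given here are exact Clopper-Pearson 95% intervals, and they cover counting error only, since the reads carry no molecular identifiers.

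The pair of counts did not weigh equally. R1 held 2273 chrM counts, a rate of 90.1 per 1000000 counts over the R1 total of 25232776. R2 held 5046, a rate of 170 per 1000000 counts over the R2 total of 29635475, which made the rate 1.89 times as high in R2. R2 supplied 68.9% of the chrM counts (95% interval 67.9 to 70.0) and 54.0% of the nuclear ones. Mitochondrial genes differed between the libraries too. The 37 mitochondrial genes took 6.75% of the expected counts of replicate 1 and 11.7% of those of replicate 2, a mean of 9.22% ± 3.48 (SD, n = 2) and a ratio of 1.73. The gene tables summed to 67252609 expected counts in replicate 1 and to 87330097 in replicate 2. In bulk tissue, fewer cells of a type and less RNA per cell cannot be told apart.

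Seen in both R1 and R2 were 255 chrM rows, 12.8% (95% interval 11.4 to 14.4). The share was 39.2% over all junctions of the table and 39.3% over the nuclear ones. Among nuclear rows with the flags A=0 and C=0 it was 6.93%, and among those of them with a span in the chrM range 9.25%. It was 28.8% for nuclear rows with A=0 and C=1 and 86.4% for those with both flags at 1. R1 alone supplied 577 chrM rows and R2 alone 1156.

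A row needs 2 reads to be seen in both, so the share was also read within classes of like count. At a count of 2 it was 14.6% on chrM, 10.6% for nuclear rows with A=0 and C=0, and 25.5% for nuclear rows with both flags at 1. At counts of 3 to 5 the chrM share was 43.2% (95% interval 37.0 to 49.6), between 28.3% and 59.1%. From 6 to 10 counts the chrM and nuclear A=0, C=0 shares were 73.6% and 73.1%, and from 11 to 20 they were 95.5% and 93.3%. All 27 chrM rows with a count of 21 or more were seen in both. So were 98.6% of nuclear rows with A=0 and C=0 and 99.7% of those with both flags at 1. The rows of 1 read, 61.6% of those on chrM, cannot be seen in both. Counts can still differ between groups within a class wider than 1 count. The balance of R1 and R2 bears on the share too, and R2 held 68.9% of counts on chrM and 54.1% in nuclear rows with A=0 and C=0.

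**Figure D1:**
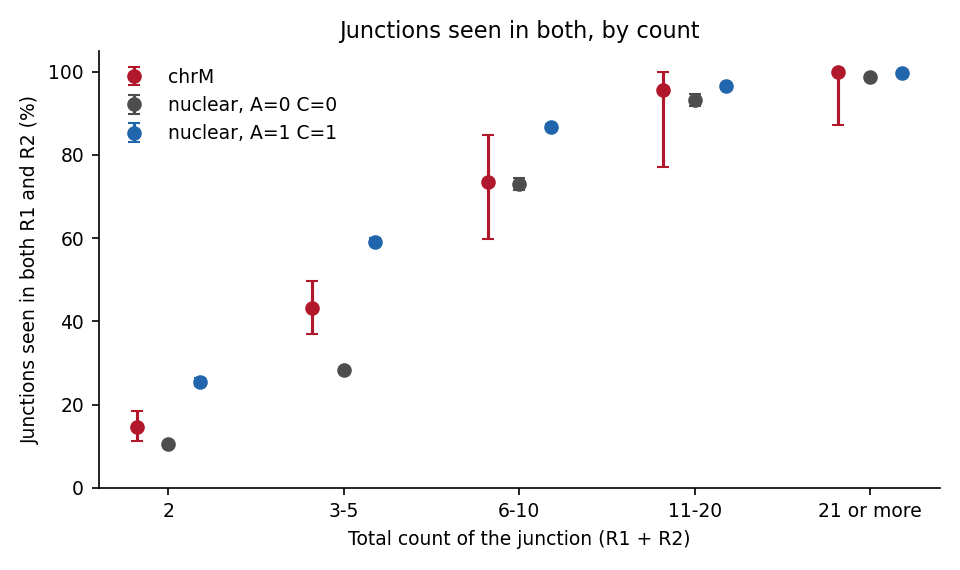
Share of junctions seen in both R1 and R2 (vertical axis, %) in classes of total count (horizontal axis), for chrM rows and for nuclear rows of the flag combinations named in the legend. Bars are exact 95% intervals; the chrM share rises from 14.6% at a count of 2 to 95.5% at 11 to 20, close to the nuclear rows with A=0 and C=0 at the higher counts.

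The junctions of highest count were found in R1 and R2 alike. The gap at 6458-6518 had 356 counts in R1 and 745 in R2. The neighbouring gap at 6451-6517 had 275 and 662, and that at 6454-6514 had 113 and 277. All 3 were higher in R2. All of the 20 rows with the highest counts were on the plus strand. They were all seen in both, as were 99.7% of all junctions of the table with a count of 21 or more. Of the 20, 19 were higher in R2, and in 19 the interval of the R2 share held the chrM value of 68.9%. The exception on both points was the gap at 5970-13867, with 19 counts in R1 and 19 in R2. Together these 20 rows held 3519 counts (48.1%), so the chrM value of 68.9% rests in large part on them. Intervals of the lower rows are also wide, such as 42.4 to 80.6 for 5954-14926. Of the 20, 17 lay within 1 gene, 14 had a repeat of 4 or more bases, and 0 began with GT and ended with AG. The last of them had 27 counts, as did 6456-6515 and 14841-14919, which start further along chrM and were not taken.

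**Figure D2:**
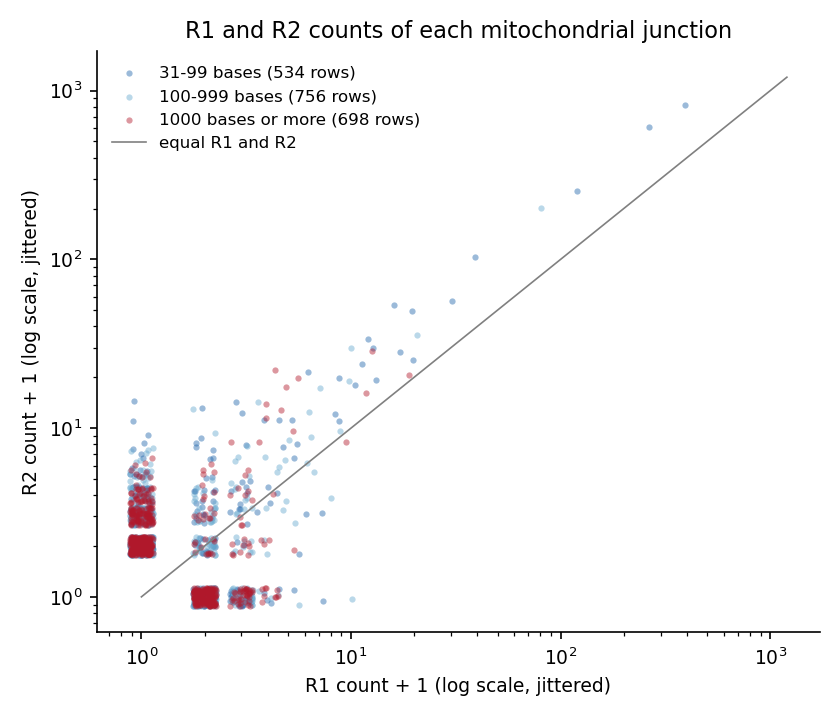
R1 count plus 1 (horizontal axis) and R2 count plus 1 (vertical axis) of each chrM junction, both on log scales with a small random shift so that points do not cover each other, coloured by span. The line marks equal counts, and the junctions of highest count lie above it, such as that with 356 in R1 and 745 in R2.

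Rows seen in only 1 of the pair stayed low. The highest found in R1 alone was the gap at 6449-6559 in mt-Co1 with 8 counts, followed by 6459-6509 with 6. Those at 4865-4912, 14388-14573 and 14720-14917 had 4 each. In R2 alone, the gap at 8454-8489 had 12 counts, 11061-11099 had 10 and 7094-7141 had 9. There were 3 rows with 7, among them 8432-8464 and 11047-11151.

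Nearly all gaps were on the plus strand. This strand, which carries all but 1 of the protein genes, held 1928 rows (97.0%, 95% interval 96.1 to 97.7) and 99.1% of the counts. Nuclear rows were 50.2% plus. By flag, the plus share on chrM was 97.4% for C=0 rows and 67.9% for C=1 rows (19 of 28). The 60 minus-strand rows held 66 counts, 54 of them 1 each and 6 of them 2 each, and 0 were seen in both. Of these, 6 lay within mt-Nd6, the protein gene of the minus strand, and 54 had an end opposite a gene of the plus strand. The deposited contig table, which lists stretches covered by reads with a signal level, had 3 plus-strand contigs on chrM. Their levels were 185 for bases 20 to 1024, 6730 for 1037 to 6943 and 1890 for 7012 to 16299. They held 5, 553 and 1001 junctions wholly inside. The only minus-strand contig, 9284 to 10011, had a level of 2.91 and held 0 minus-strand rows.

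Spans ran from 31 to 14819 bases, with a median of 275 and quartiles of 94 and 2861.75. The median of nuclear rows with A=0 and C=0 in the same range was 279.5. Counts leaned to the short end. The 534 rows of 31 to 99 bases held 4176 counts (57.1%), and 16.5% of them were seen in both. That share was 8.18% for 500 to 1999 bases, 7.42% for 2000 to 6999 and 14.7% for the 204 rows of 7000 or more. The longest gap, 167-14985, ran from mt-Rnr1, a ribosomal RNA, to mt-Cytb and had a count of 2. The gaps at 660-15367, 1826-14163, 981-13174 and 1890-13865 came next in length. The shortest span, 31 bases, which is also the shortest among nuclear rows, was shared by 7 rows. They include 8782-8812 with a count of 6, 14411-14441 with 3 and 2031-2061 with 2, and the other 4, such as 2874-2904 and 4148-4178, had 1 each. Joins across the numbering origin of the circle cannot appear as rows of this kind.

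Bases at the gap edges were mostly not those of introns. On the row's own strand, 25 of 1932 rows with known bases began with GT and ended with AG (1.29%, 35 counts). Among all position pairs, read on the plus strand alone, the share was 0.132%. Of the 25 rows, 11 were placed as far left as their repeat allowed, against all 1907 rows with C=0. The part of placement in the GT and AG share was not tested. Of these 25, 2 were seen in both. GC with AG, a rarer intron pair, was found in 5 of 1907 rows with C=0 (0.262%), with 71 counts. The gap at 6425-6531 in mt-Co1, with a repeat of 7 bases, held 55 of these counts. AT with AC was found in 19 rows (0.996%) with 31 counts. The shares of position pairs with these edges were not computed. The C=1 gaps of highest count, shown above, were 5493-5556 and 6447-6630 with 1 count in R1 and 3 in R2 each, and 8695-9027 with 0 and 4. All 28 rows with C=1 held 38 counts.

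Direct repeats at the borders were frequent. Of the 1904 rows with C=0 and a known repeat, 983 (51.6%, 95% interval 49.4 to 53.9) had 4 or more shared bases. That share was 0.608% of the 84699904 pairs of chrM positions that could not be moved further left. Repeats of 6 or more bases stood at 24.7% of rows and 0.0504% of pairs, and of 8 or more at 6.25% and 0.00444%. No shared base was found at 247 rows, against 72.5% of pairs. The share with 4 or more was 65.2% among rows seen in both (163 of 250) and 49.6% among the others. On the minus strand it was 54.3% (25 of 46). Among C=1 rows 3 of 25 had 4 or more, but shared bases were counted only rightward from the start of the gap. Just 11 of these 25 rows were placed as far left as their repeat allowed. The C=1 value can therefore miss shared bases and cannot be set against the 51.6%. Matching of the few bases beyond an alignment gap can itself be favoured by an aligner, and no source at hand gives its settings. Their part in the repeats was not tested.

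**Figure D3:**
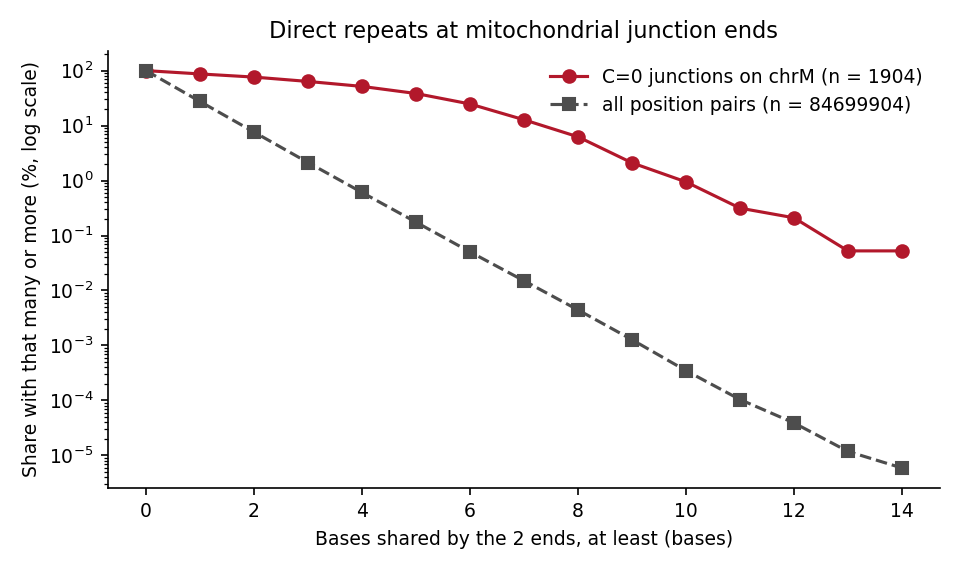
Share (vertical axis, %, log scale) of chrM junctions with C=0 (red) and of all position pairs (grey) whose borders share at least the number of bases on the horizontal axis. At 4 bases the junctions stand at 51.6% and the pairs at 0.608%.

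The single densest place was a short stretch of mt-Co1, the gene of the catalytic subunit of cytochrome c oxidase. Gaps with a left end in 6401-6500 and a right end in 6501-6600 made up 62 rows and 2803 counts, or 38.3% of all chrM counts, with a median span of 58.5 bases, and 27 were seen in both. The 3 rows of highest count alone held 2428 counts (33.2%). Their borders share 3, 6 and 3 bases, as the capitals above show. Of the 62 rows, which include C=1 rows such as 6444-6501, 10 (16.1%) had a repeat of 4 or more bases. The share was 40.2% for all chrM rows of 31 to 99 bases, many of the 62 among them and C=1 rows included. It was 51.6% for C=0 rows of all spans. The stretch is printed next, with capitals at the 20 bases kept just before or just after the gap in the 12 rows with a count of 10 or more. Those 12 rows held 2663 counts and spanned 49 to 107 bases.
mt-Co1, short gaps, chrM:6414-6573: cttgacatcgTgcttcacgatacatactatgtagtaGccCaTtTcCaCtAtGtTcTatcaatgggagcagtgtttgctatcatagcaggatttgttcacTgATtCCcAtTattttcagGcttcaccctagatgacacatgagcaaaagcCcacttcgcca

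Gaps of equal length often lay side by side. Counting rows of the same span with each start at most 20 bases from the next as a family, 289 rows (14.5%) fell into 130 families, and they held 4044 counts (55.3%). The largest family by count had 6 rows of 61 bases with 1546 counts, in the mt-Co1 stretch above. Next came 3 rows of 67 bases with 942 counts, 3 rows of 111 bases in mt-Cytb with 265, 2 rows of 52 bases in mt-Nd1 with 154, and the pair of 7898 bases with 80.

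By rows, the leading single positions were others. An end is given as the first (left) or last (right) skipped base. The left ends stood at 1618 positions and the right ends at 1432, of which 1336 and 1131 had a single row. The position with most rows was the right end at 13868, opposite mt-Nd6, with 18 rows and 48 counts. Right ends at 14919 and 14935 in mt-Cytb had 17 rows with 50 counts and 12 rows with 29 counts. The left end with most rows was 5954 in mt-Co1, with 11 rows and 44 counts. The positions 13937, 13650 and 14925 had 10 rows each, 14926 had 9 with 61 counts, and of the 4 positions with 8 rows, 11416 and 13869 had the highest counts, 73 and 64. By counts the order was another one: 6518 led with 1129 counts, then 6458 with 1113, 6517 with 941, 6451 with 937, 6514 with 409 and 6454 with 392. The ends at 14428 and 14538 followed with 261 each, and 2807 and 2858 with 154 and 153. No position was among the leading 10 by both measures.

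In windows of 100 bases, right ends in 14901-15000 of mt-Cytb were the most numerous, with 160 rows and 410 counts against a median window of 7 rows. Of these, 91 spanned 1000 bases or more, 94 had a repeat of 4 or more bases and 32 were seen in both. Left ends in 5901-6000 of mt-Co1 followed with 107 rows and 353 counts, 74 of them of 1000 bases or more. Next came left ends in 6401-6500, the short gaps of mt-Co1, with 92 rows, right ends in 13801-13900 with 85 and right ends in 6501-6600 with 77. The long gaps joined some of these windows: 5901-6000 to 13801-13900 had 9 rows with 101 counts, to 13901-14000 15 rows, and to 14901-15000 12 rows with 48 counts. The 3 stretches are printed below, with capitals at the base kept beside the gap in 5 or more rows.
left ends in mt-Co1, chrM:5934-5993: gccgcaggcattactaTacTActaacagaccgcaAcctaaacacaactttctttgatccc
right ends opposite mt-Nd6, chrM:13848-13907: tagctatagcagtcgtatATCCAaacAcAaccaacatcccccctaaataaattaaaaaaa
right ends in mt-Cytb, chrM:14899-14958: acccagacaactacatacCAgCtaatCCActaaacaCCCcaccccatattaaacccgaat

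**Figure D4:**
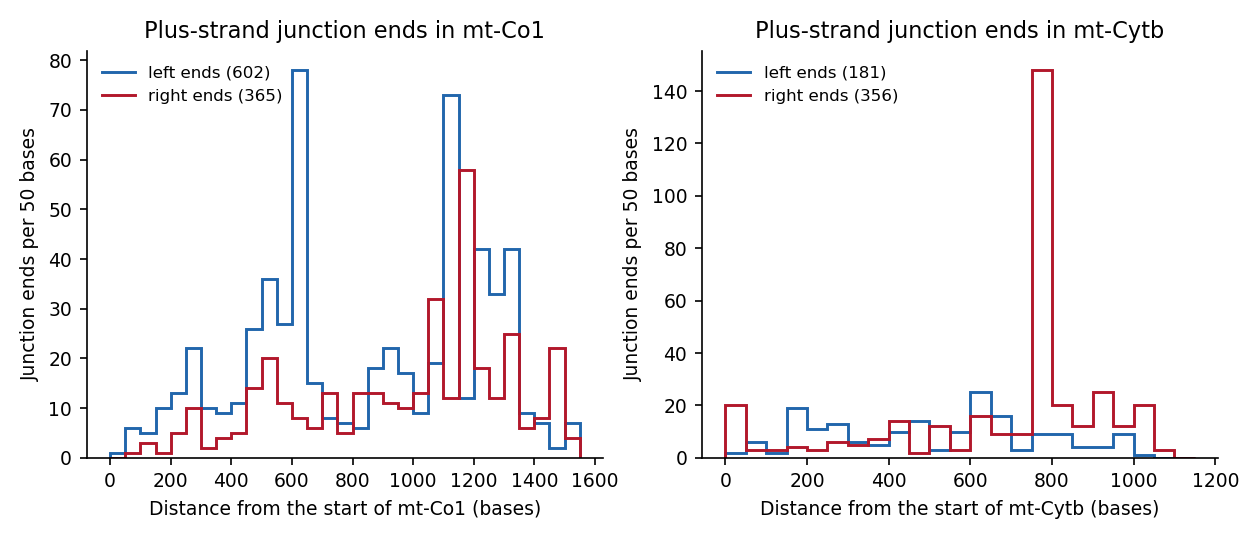
Plus-strand junction ends per 50 bases (vertical axis) against the distance in bases from the start of mt-Co1 and of mt-Cytb (horizontal axes), with left and right ends as separate lines. Right ends in mt-Cytb peak at 148 between 750 and 800 bases, and left ends in mt-Co1 peak at 78 between 600 and 650 and at 73 between 1100 and 1150 bases.

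Of the 5 gaps of 1000 bases or more with the highest counts, 3 ran from 5901-6000 to 13801-13900 or 14901-15000. The gap at 5972-13869 had 11 counts in R1 and 31 in R2, and its borders share 9 bases. The gap at 5970-13867 had 19 and 19 and a repeat of 1 base, and 5954-14926 had 10 and 17 and a repeat of 5. The other 2 ran elsewhere. The gap at 4306-11418 from mt-Nd2 to mt-Nd4, 2 subunits of complex I, had 3 and 22 and no repeat. That at 6544-14144 had 5 and 17 and a repeat of 6, and the base after the gap as placed is the first of mt-Cytb. In all, 698 rows spanned 1000 bases or more, with 1342 counts, of which 66 (9.46%) were seen in both and 12 had a count of 10 or more.

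Most gaps stayed within a gene. Both ends lay in 1 gene on its own strand in 1116 rows (56.1%) with 5727 counts (78.2%), a median span of 111 bases and 16.0% seen in both. Another 525 rows with 959 counts ran from gene to gene, and 8.95% of them were seen in both. With no end outside genes, an end opposite a gene was found in 301 rows with 575 counts, and with such rows included it was found in 311. The remaining 46 rows, with 58 counts, had an end outside genes, and 0 were seen in both. From gene to gene, mt-Co1 to mt-Cytb had 64 rows with 156 counts and mt-Co1 to mt-Atp6 44 with 84. To the strand opposite mt-Nd6, mt-Nd5 gave 63 rows with 102 counts and mt-Co1 52 rows with 208 counts.

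Few ends lay within 5 bases of gene borders, though some gaps as placed ended exactly at a gene start. A right end within 5 bases of a plus-strand gene start was found in 28 of 1928 rows (1.45%), and 1.86% of positions lie that close. A left end within 5 bases of a gene end was found in 5 rows (0.259%), against 1.89% of positions. The first base of mt-Cytb followed the gap in 6 rows with 39 counts, and that of mt-Nd4l in 4 rows with 8 counts. For mt-Co3 and mt-Nd5 it did so in 2 rows each, for mt-Co2 and mt-Atp8 in 1 row each, and for the other genes in 0. A share of positions for exact starts was not computed. The 6 rows at the start of mt-Cytb had repeats of 3 to 9 bases. Each of these gaps could be placed up to that many bases further right, so the exact end depends on the placement. Right ends in mt-Cytb numbered 20 in its first 50 bases and 3 in the next 50. Transfer RNA genes, which cover 9.21% of chrM, held 19 of the 3976 junction ends (0.478%). All 22 were listed at 0 expected counts in both libraries. The control region, 5.38% of chrM, was touched by 42 rows.

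Among the genes, mt-Co1 and mt-Cytb held the most gaps. Within mt-Co1 there were 334 rows with 3434 counts, 216 rows per kb, for an mRNA at 31046 TPM in replicate 1 and 49133 in replicate 2. TPM, a share of all transcripts, is a level per length. Within mt-Cytb, the cytochrome b of complex III, there were 180 rows with 825 counts, 157 per kb, at 9655 and 16538 TPM. For mt-Co3, a further cytochrome c oxidase subunit, the values were 96 rows with 239 counts, 122 per kb, at 20527 and 30259 TPM. Of the subunits of complex I, mt-Nd5 had 107 rows with 180 counts, mt-Nd2 93 with 191, mt-Nd4 91 with 248, mt-Nd1 57 with 275 and mt-Nd4l 8 with 12. The ATP synthase subunit mt-Atp6 had 63 rows with 154 counts and its overlapping neighbour mt-Atp8 5 with 5. The oxidase subunit mt-Co2 had 54 with 120. mt-Nd6, at 112 and 365 TPM, had 6 rows with 8 counts, and mt-Nd3, at 221 and 720 TPM, had 0. The ribosomal RNAs mt-Rnr1 and mt-Rnr2, whose kind was depleted per the labels, had 5 rows with 5 counts and 17 rows with 31.

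Scaled to the expected counts of the 2 libraries together, the order changed. The rate was 747 junction counts per 1000000 expected counts for mt-Nd6 and 639 for mt-Nd4l, which rest on 8 and 12 junction counts. It was 582 for mt-Nd2, 499 for mt-Cytb, 480 for mt-Co1 and 122 for mt-Co3. Without its 3 rows of highest count, the value for mt-Co1 was 140. Over the 13 protein genes, Spearman's rho was 0.808 between rows and expected counts, 0.835 between junction counts and expected counts, and 0.874 between rows and gene length. Without mt-Co1 the first was 0.755. These are descriptions across genes that share libraries, length and sequence context, and the genes are not independent replicates.

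**Figure D5:**
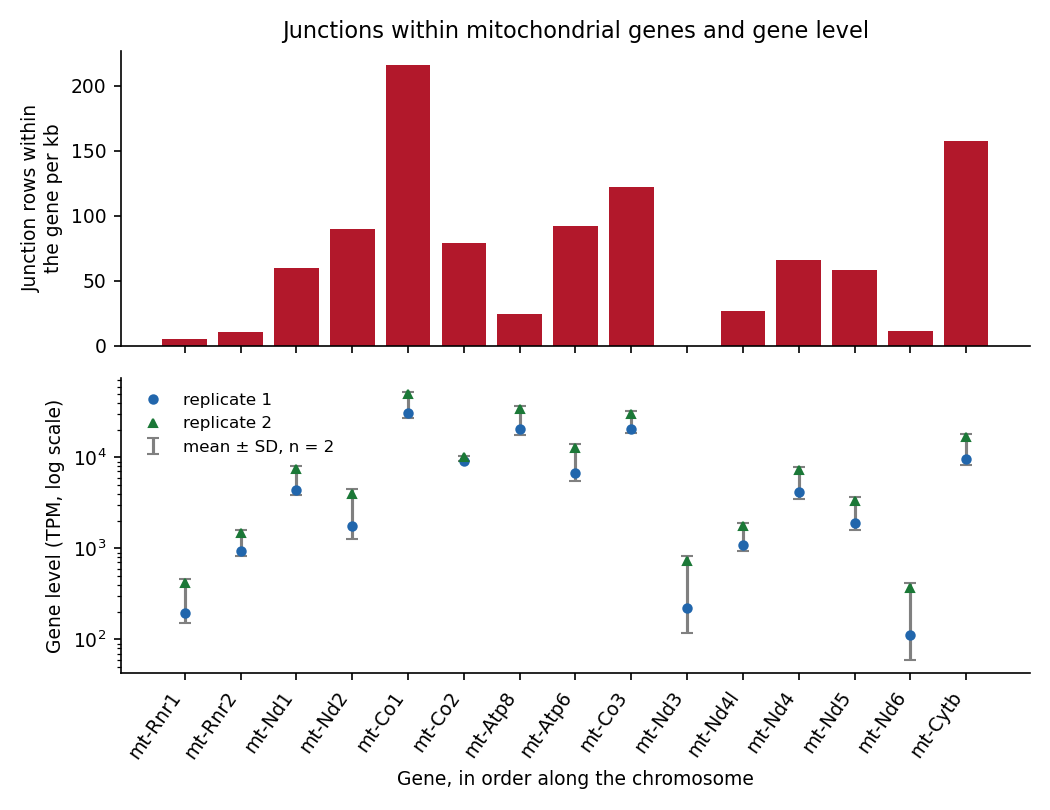
Junction rows within each mitochondrial gene per kb (upper panel, bars) and the TPM of the gene on a log scale (lower panel), with genes in order along the chromosome. Points are replicates 1 and 2 and bars the mean ± SD (n = 2). mt-Co1 and mt-Cytb stand highest in rows per kb, at 216 and 157, and mt-Nd3 has 0.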

How the data were processed

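The deposited count per junction is a whole number equal to R1 + R2 in every row, on mm9. Each deposited row also holds other fields, a name with flags A and C and measures of unstated meaning. The deposited contigs give a signal level. The authors' gene tables on mm10 with annotation M4 give an expected count and a TPM per gene for each library. The aligner, junction caller and quantification settings were not given in the sources used here. How reads that also match nuclear copies of mitochondrial DNA were treated was not given either, and its part in the junctions was not tested.

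Rows on chrM were taken with all flags and no filter. Span, strand, counts, repeats and gap edges were computed with Python 3.11.15, pandas 2.3.3 and numpy 2.4.6, exact Clopper-Pearson 95% intervals with SciPy 1.17.1, and plots with matplotlib 3.10.9. Only the steps that measure the repeat and the leftmost placement were tested on simulated data, a random sequence with planted repeats. Sequence and gene borders came from GENCODE M21 on GRCm38, used for chrM alone after the coordinate check in the report. Gene symbols were matched for all 37 chrM genes. With 1 group and 1 junction table for the series, no test between conditions was run. Alternatives changed count minimum, weighting, strand, flags and repeat length. Members and lists were chosen with earlier results of these data known. Named junctions were the 20 of highest count, the 5 longest, the 5 shortest and the 5 highest in R1 alone and in R2 alone. Named positions were the 10 with most rows and the 10 with most counts. Long gaps, C=1 gaps and the 14-base repeat beyond those were named after their values were seen.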

Additional observations from a re-analysis of the deposited data

How the results depend on the processing

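The number of chrM junctions, 1988, became 764 at a count of 2 or more, 56 at 10 or more, 255 for rows seen in both R1 and R2, and 81 at 0.1 or below of a deposited measure of unstated meaning. The share seen in both, 12.8%, became 33.4% and 96.4% at those count minimums. The median span of 275 bases became 70 weighted by count, 158 for rows seen in both, 303 on the minus strand, and, chosen after seeing the data, 129 weighted without the 3 rows of highest count and 250 for R2 rows. The plus-strand share of 97.0% became 99.1% weighted, 100% for rows seen in both, and 98.7% weighted without those 3 rows. The chrM share of counts, 0.0133%, was 0.00901% in R1, 0.0170% in R2 and 0.00891% without those 3 rows (6458-6518, 6451-6517 and 6454-6514). The position with most ends, 13868, became 6518 by summed count and 14890 to 14945 (154 rows) with ends within 5 bases joined. The nuclear share seen in both, 39.3%, was 14.9% at A=0, 38.3% at chrM counts and 9.25% for A=0, C=0 rows in the chrM span range. The repeat share of 51.6% was 24.7% at 6 or more bases and 65.2% for rows seen in both. Mitochondrial genes held 9.22% of expected counts, 6.75 to 11.7% with 1 library left out, and 15.0% by TPM. The cause was not tested. No paired analysis was possible because there is 1 group. Depth limits the rows of 1 read, and no row can be assigned to a library.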

Other observations

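Gap lengths within the protein genes of the plus strand were more often a multiple of 3 than position pairs were. Of 1075 such rows with C=0, 506 (47.1%, 95% interval 44.1 to 50.1) had a span divisible by 3, against 32.1% of position pairs within those genes. With a repeat of 4 or more bases the share was 55.5% of rows (291 of 524) and 48.4% of pairs, and with 6 or more bases 62.4% and 60.0%. With a repeat under 4 bases it was 39.0% (95% interval 34.9 to 43.2) and 32.0%. Taking 1 row for each family of equal span gave 46.7%. The share of pairs rose with the repeat, and rows had longer repeats than pairs, also in the class under 4 bases. Rows and pairs were not matched for repeat length, so the contrasts at all repeats and under 4 bases hold part of the repeat excess. What would be left after such matching was not computed.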
